A study of Rattus norvegicus with 12 samples.

Results

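The genes described here are 34 genes of cholesterol synthesis and sterol control, read from rat hypothalamus. They were chosen by name for their known roles. All 34 were found among the 17310 gene identifiers of the series and all 34 passed the filter on low counts, which left 12856 genes for testing. Of the 34, 8 belong to the mevalonate steps, 12 to the sterol steps that follow, 5 to the control of the sterol regulatory factors, 4 to the oxysterol receptors and cholesterol efflux, and 5 to transport, storage and turnover.

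Messenger RNA was sequenced from the hypothalamic region that holds the paraventricular nucleus (PVH) of wild-type male Wistar rats aged 12 weeks, in 6 groups of 2 libraries. Sham rats had the operation without removal of the adrenal glands (labelled sham-ADX). High Cort rats were labelled as 12 days of high corticosterone, the main glucocorticoid of the rat, and ADX rats as 7 days of adrenalectomy. Supplemented ADX rats were adrenalectomised and given corticosterone, for a time the labels did not state, and the 1 h acute and 3 h acute groups were named for the hours of acute corticosterone. The labels did not say whether acutely treated rats were intact or adrenalectomised and named no vehicle group, so both acute groups were set against sham and against supplemented ADX. Nothing said whether a library came from 1 animal or from pooled animals, so the spread behind every p-value is that of libraries and may be technical.

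Cells make cholesterol from acetyl-CoA by way of mevalonate, squalene and lanosterol. When membranes are short of sterol, the carrier SCAP takes the SREBP factors to the Golgi, where they are cut and released to switch on the synthesis genes; INSIG proteins hold SCAP back when sterol is plentiful, and oxysterols act through the LXR receptors to raise efflux. The adult brain makes its own cholesterol behind the blood-brain barrier, mostly in glia and above all in the oligodendrocytes that build myelin, while neurons clear the excess by hydroxylating it with CYP46A1.

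Libraries held 17674159 to 36249006 fragments assigned to genes. The files came from 2 processing runs, the first with sham, high Cort and ADX, the second with the supplemented and both acute groups. Comparisons of an acute group with sham, and of supplemented ADX with ADX, cross the runs, and there run and group cannot be told apart. The PVH markers Crh, Avp, Oxt, Trh, Sim1 and Otp were present in every library (summed 352 to 857 CPM, counts scaled to library size). Glucocorticoid response genes moved in the high Cort libraries, where Fkbp5, Tsc22d3, Sgk1, Per1 and Klf9 were called higher than sham and Crh lower. Per1 was at 82.5 and 87.4 CPM in 1 h acute against 48.7 and 50.5 in supplemented ADX and 49.8 and 51.9 in 3 h acute. Of these 6 genes, Per1 alone was called in 1 h acute against supplemented ADX. In 3 h acute against supplemented ADX 0 of the 6 were called. In 3 h acute against sham only Crh was called, and it was higher, at 20.8 and 23.8 CPM against 10.5 and 13.5. Thalamus markers, of which 12 were measured, summed to 1480 and 2020 CPM (sham), 1970 and 1980 (high Cort), 1090 and 1240 (ADX), 1180 and 1230 (supplemented ADX), 970 and 520 (1 h acute) and 939 and 886 (3 h acute). None of the 12 was at 0 in any library. Their part in the results was not tested except by a fit with a thalamus score as a covariate, given beside the genes it touches.

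Per unit of transcript length, Hmgcs1, which encodes the synthase that makes HMG-CoA, was the most abundant of the 34 genes in sham, at 164 and 154 FPKM (fragments scaled by transcript length and library size). Srebf2, which encodes the SREBP factor of sterol genes, followed at 98.5 and 91.6 FPKM, then Sc5d at 101 and 87.3, Cyp51 at 93.4 and 87.4, Msmo1 at 88.1 and 80.9, Insig1 at 84.5 and 83.2 and Cyp46a1 at 74.8 and 91.7. The levels of these 6 genes overlapped between neighbours in that order, so their order is not settled, whereas both Hmgcs1 values lay above all of them. Nr1h3, which encodes LXR alpha, was the lowest at 1.86 and 1.98 FPKM, below Tm7sf2 at 5.0 and 5.1 and Hsd17b7 at 5.34 and 5.71.

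Levels of the pathway varied little between groups. Across all 12 libraries the highest CPM of a gene was 1.11 times its lowest in Ggps1, at one end, and 2.02 times in Cyp46a1, at the other. A gene is called here where edgeR's quasi-likelihood test gave an adjusted p under 0.05 over all genes tested. In 306 tests (34 genes in 9 comparisons) 10 were called, in 9 different genes, and 25 genes were called in none. The largest log2 fold change was 0.65 in size and 2 of the 306 were over 0.5, and the 95% intervals reached a median of 0.14 to either side. A test for any difference among the 6 groups called 6 of the 34 genes (17.6%) against 12.9% of all genes tested. These 6 were Stard4 (adjusted p = 0.00159), Insig1 (0.00281), Npc2 (0.00452), Idi1 (0.00698), Hsd17b7 (0.0212) and Cyp46a1 (0.0299).

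**Figure D1:**
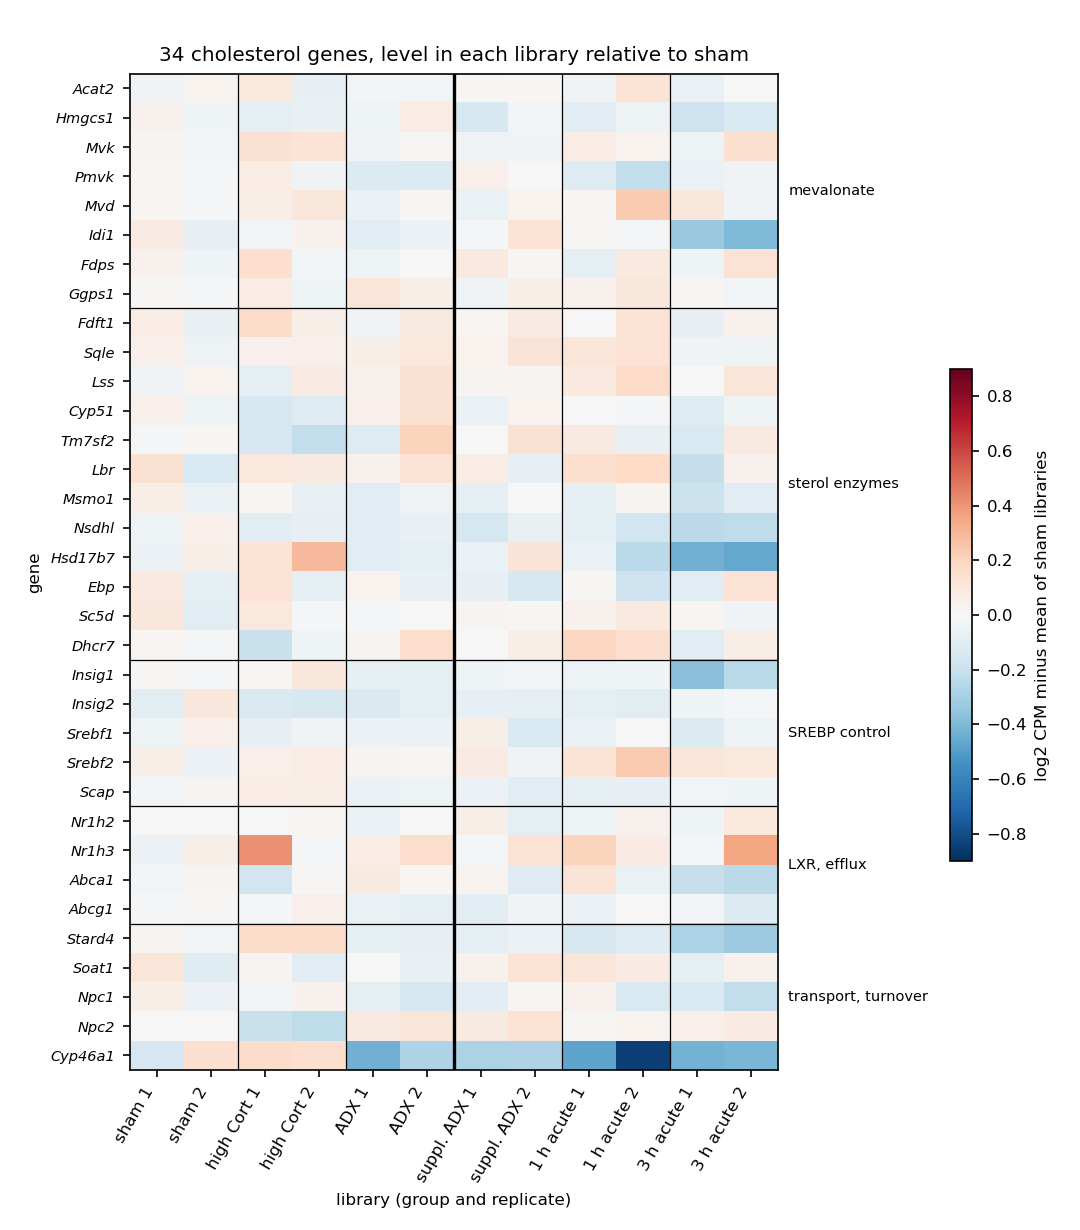
Level of each of the 34 genes in each of the 12 libraries, as log2 CPM minus the mean of the sham libraries (colour scale, red higher and blue lower), with genes in rows by role and libraries in columns by group. The thick line separates the processing runs. Most cells are pale; Idi1, Hsd17b7, Insig1 and Stard4 are blue in both 3 h acute libraries, and Cyp46a1 is blue in ADX, supplemented ADX and both acute groups.

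The clearest movement was 3 h after acute corticosterone, and it was downward. Against sham, 5 genes fell and none rose: Insig1, Stard4, Idi1, Hsd17b7 and Nsdhl, by 15% to 26.8%. DESeq2 also called 5, where it called 987 of all genes, and Insig1, Stard4 and Idi1 were shared. In place of Hsd17b7 (adjusted p = 0.101) and Nsdhl (0.11) it called Abca1 (0.044) and Cyp46a1 (0.0407), both lower. A fit of the 3 h acute and sham libraries alone called 4 of the 34, Insig1, Stard4, Idi1 and Abca1, and 740 of all genes. By edgeR, the 5 genes are 14.7% of the 34 genes, where 7.98% of all genes tested were called in either direction and 4.57% were called lower. At an unadjusted p under 0.05 there were 10 genes, all lower (29.4%, against 25% of all genes in either direction). Of all 12856 genes, 1798 were lower at that threshold. Of the 34, 25 had a log2 fold change below 0 (50.9% of all genes did), with a median of -0.032 against -0.004 over all genes. Both 3 h acute libraries lay below both sham libraries in 13 genes (38.2%, against 27.6% of all genes) and above in 2 (5.88%, against 25.4%). In bulk tissue, fewer cells of a type and less RNA per cell cannot be told apart.

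Idi1 and Insig1 also led the 34 genes within the second run, without reaching the threshold. Against supplemented ADX, edgeR called 0 of the 34, while 0.00778% of all genes (1 gene) were called. Of the 34, 7 had an unadjusted p under 0.05, all lower (12.5% of all genes in either direction, and 755 of 12856 lower). DESeq2 called 2, Idi1 and Insig1, where it called 34 of all genes. With limma on FPKM plus 1, 0 were called, and 1 of all genes was. Idi1 had the second smallest p of all genes (rank 2 of 12856) and Insig1 the sixth (rank 6), each with an adjusted p of 0.0674. Both 3 h acute libraries lay below both supplemented ADX libraries in 13 genes (38.2%, against 23.6% of all genes) and above in 3 (8.82%, against 22.2%). Against 1 h acute, edgeR called 0 of the 34 and 0.0233% of all genes (3 genes). Here 9 of the 34 had an unadjusted p under 0.05, all lower (10.6% of all genes in either direction, and 733 of 12856 lower). DESeq2 called 2 here, Idi1 and Insig1, where it called 24 of all genes. With limma on FPKM plus 1, 0 were called, and 9 of all genes were. Both 3 h acute libraries lay below both 1 h acute libraries in 17 genes (50%, against 19.4% of all genes) and above in 5 (14.7%, against 19.5%). The 3 comparisons share the 3 h acute libraries and are not independent of each other.

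**Figure D2:**
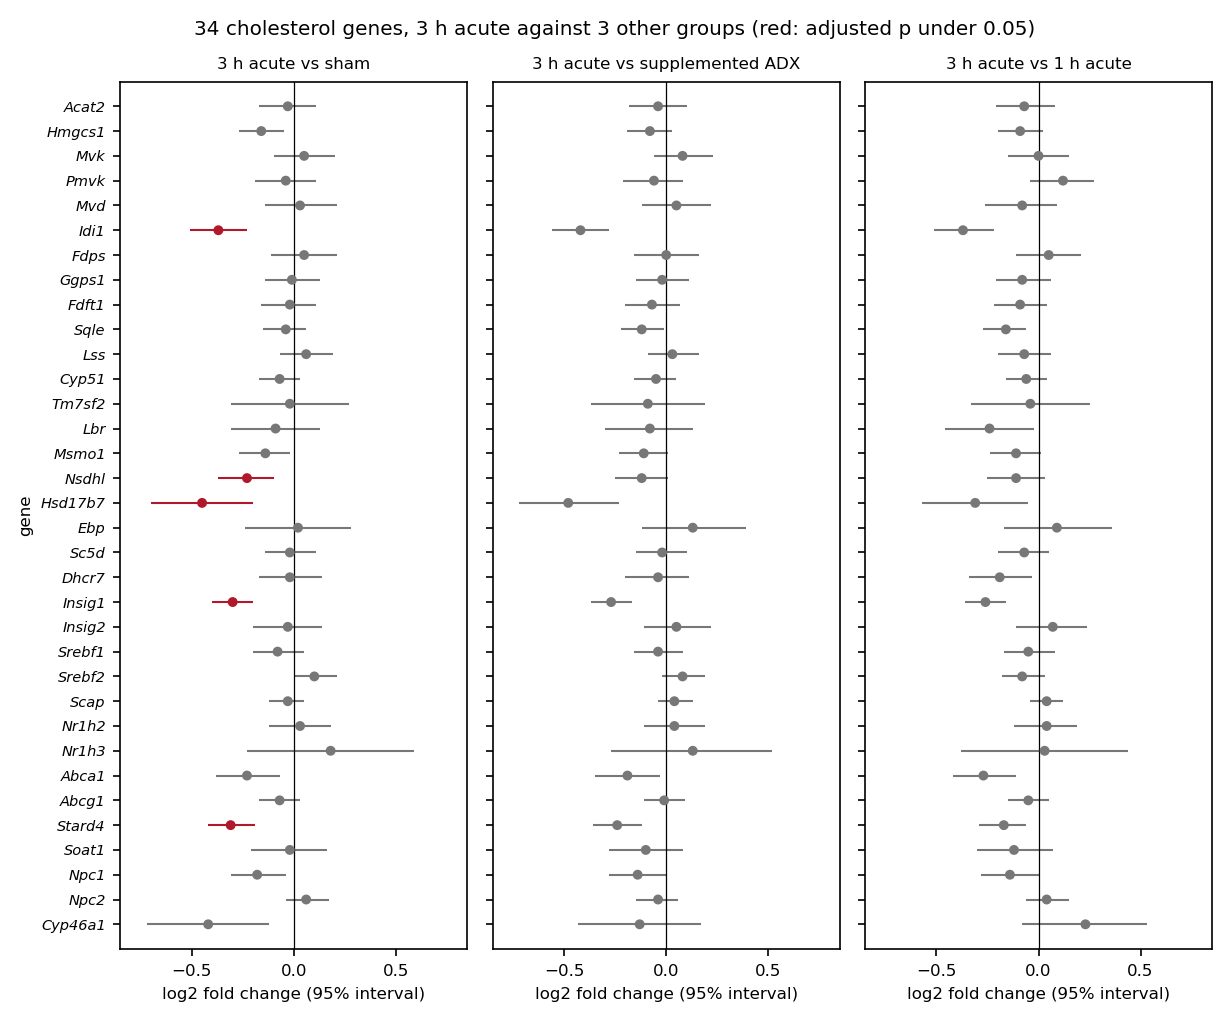
Log2 fold change (points) with 95% interval (lines) of each of the 34 genes in 3 h acute against sham, supplemented ADX and 1 h acute; red marks an adjusted p under 0.05, which 5 genes had against sham and none against the other groups. Idi1, Insig1, Stard4 and Hsd17b7 lie left of 0 with their whole interval in each panel.

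Among the mevalonate genes, Idi1, which encodes the isomerase that makes the active isoprene unit, was the gene that fell. It stood at 52.1 and 46.9 CPM (sham), 48.6 and 50.8 (high Cort), 46.2 and 47.6 (ADX), 49.0 and 53.9 (supplemented ADX), 49.8 and 49.0 (1 h acute) and 39.3 and 37.5 (3 h acute). Both 3 h acute libraries lay below the other 10 libraries, which spanned 46.2 to 53.9 CPM. Against sham, Idi1 fell by 0.37 on the log2 scale (SE 0.07, 22.5%, adjusted p = 0.00752). The log2 difference was -0.42 ± 0.07 (SE) against supplemented ADX (adjusted p = 0.0674) and -0.37 ± 0.07 against 1 h acute (adjusted p = 0.0918).

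Hmgcs1, upstream of Idi1, was at 508 and 481 CPM (sham), 464 and 473 (high Cort), 479 and 519 (ADX), 447 and 487 (supplemented ADX), 462 and 480 (1 h acute) and 435 and 450 (3 h acute). The 3 h acute libraries were below both sham libraries but overlapped supplemented ADX, and the difference from sham was not called (-0.16 ± 0.05, adjusted p = 0.067). Pmvk, a kinase of the same steps, was at 21.9 and 21.4 CPM (sham), 22.7 and 21.2 (high Cort), 19.9 and 19.9 (ADX), 22.3 and 21.6 (supplemented ADX), 20.0 and 18.6 (1 h acute) and 20.8 and 21.2 (3 h acute). It was lowest in ADX and 1 h acute, with no call; 1 h acute differed from supplemented ADX by -0.18 on the log2 scale (adjusted p = 0.262). The other mevalonate genes, Acat2, Mvk, Mvd, Fdps and Ggps1, had no call in any comparison, and their highest library was 1.11 to 1.23 times their lowest.

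Of the 12 sterol-step genes, Hsd17b7 and Nsdhl fell at 3 h. Both encode enzymes of the steps that remove methyl groups from the sterol ring. Hsd17b7, of low abundance, was at 8.04 and 8.64 CPM (sham), 9.06 and 10.2 (high Cort), 7.76 and 7.89 (ADX), 7.99 and 9.04 (supplemented ADX), 7.99 and 7.04 (1 h acute) and 6.17 and 6.05 (3 h acute). Its 3 h acute libraries were the lowest of the 12 and its high Cort libraries the highest. It fell by 0.45 on the log2 scale against sham (SE 0.12, 26.8%, adjusted p = 0.0337), and the difference was -0.48 ± 0.12 from supplemented ADX (adjusted p = 0.163) and -0.31 ± 0.12 from 1 h acute (adjusted p = 0.363).

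Nsdhl was at 33.1 and 35.3 CPM (sham), 31.8 and 32.4 (high Cort), 31.9 and 32.7 (ADX), 30.7 and 32.6 (supplemented ADX), 32.3 and 30.4 (1 h acute) and 29.0 and 29.2 (3 h acute). The 3 h acute libraries were the lowest, by a small margin, and sham the highest. Against sham Nsdhl fell by 0.23 on the log2 scale (SE 0.06, 15%, adjusted p = 0.037). Within the run the differences were -0.12 ± 0.06 from supplemented ADX (adjusted p = 0.45) and -0.11 ± 0.06 from 1 h acute (adjusted p = 0.573).

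Cyp51, which encodes the demethylase that acts first on lanosterol, was lower in high Cort. It was at 266 and 250 CPM (sham), 233 and 238 (high Cort), 266 and 283 (ADX), 247 and 263 (supplemented ADX), 257 and 255 (1 h acute) and 239 and 251 (3 h acute). High Cort was the lowest group and did not overlap sham or ADX. The log2 differences from sham were -0.13 ± 0.05 in high Cort (adjusted p = 0.376) and 0.09 ± 0.05 in ADX (adjusted p = 0.458). Cyp51 was lower by 0.22 on the log2 scale in high Cort against ADX (SE 0.05, 14.2%, adjusted p = 0.0137). With the thalamus score as a covariate the difference was -0.21 with an adjusted p of 0.106. Without high Cort replicate 1 the adjusted p was 0.119, and without ADX replicate 2 it was 0.132.

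Sqle encodes squalene epoxidase, a slow step of the pathway. Its CPM was 80.6 and 75.4 (sham), 80.2 and 80.6 (high Cort), 80.9 and 83.1 (ADX), 79.8 and 84.5 (supplemented ADX), 84.2 and 85.3 (1 h acute) and 76.1 and 75.4 (3 h acute). Values in 1 h acute were high and those in 3 h acute low, without a call. The 1 h acute libraries overlapped supplemented ADX, and the 3 h acute libraries overlapped sham. The log2 difference was 0.12 ± 0.05 for 1 h acute against sham (adjusted p = 0.123) and -0.16 ± 0.05 for 3 h against 1 h acute (adjusted p = 0.266). For 3 h acute it was -0.04 ± 0.05 against sham (adjusted p = 0.652) and -0.12 ± 0.05 against supplemented ADX (adjusted p = 0.344). The remaining sterol-step genes, Fdft1, Lss, Tm7sf2, Lbr, Msmo1, Ebp, Sc5d and Dhcr7, had no call, and the ratio of highest to lowest library ran from 1.16 in Sc5d to 1.34 in Tm7sf2.

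Among the control genes, Insig1 moved. It was at 189 and 187 CPM (sham), 189 and 202 (high Cort), 177 and 178 (ADX), 183 and 185 (supplemented ADX), 182 and 183 (1 h acute) and 145 and 159 (3 h acute). The 3 h acute libraries were the lowest of the 12, and 1 h acute was within the range of the other groups. Against sham Insig1 fell by 0.30 on the log2 scale (SE 0.05, 18.9%, adjusted p = 0.00386), the smallest p of the 34 genes in that comparison. The log2 difference was -0.27 ± 0.05 against supplemented ADX (adjusted p = 0.0674) and -0.26 ± 0.05 against 1 h acute (adjusted p = 0.0918). It was the 1 gene of the 5 whose call against sham held without each of the 12 libraries in turn. INSIG1 holds SCAP in the endoplasmic reticulum, and its gene is itself a target of SREBP.

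Srebf2 was at 480 and 448 CPM (sham), 478 and 485 (high Cort), 471 and 467 (ADX), 487 and 454 (supplemented ADX), 504 and 547 (1 h acute) and 500 and 496 (3 h acute). Both acute groups lay above every other library. In 1 h acute it rose by 0.18 ± 0.05 (log2, SE) over sham (adjusted p = 0.0295), where 12.8% of all genes were called and 2 of the 34 (5.88%), Srebf2 higher (5.56% of all genes were) and Cyp46a1 lower (7.2%). The difference in 3 h acute was 0.10 ± 0.05 (adjusted p = 0.21). With the thalamus score in the model the 1 h difference was 0.01, with no call. In that fit 1 of all genes was called in 1 h acute against sham (1641 without the score). The 1 h difference of Srebf2 was 0.13 without 1 h acute replicate 2 and 0.14 without sham replicate 2.

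Srebf1, which encodes the SREBP factor of fatty acid genes, was at 147 and 156 CPM (sham), 144 and 148 (high Cort), 146 and 146 (ADX), 157 and 138 (supplemented ADX), 145 and 151 (1 h acute) and 139 and 147 (3 h acute). All libraries lay between 138 and 157 CPM and no comparison called it. The interval of its log2 difference was -0.20 to 0.05 for 3 h acute against sham, and -0.18 to 0.07 for high Cort against sham. Scap, at 231 to 260 CPM, and Insig2 were called in no comparison either. Insig2, the second INSIG gene, lay at 16.5 to 19.5 CPM, and its interval for 3 h acute against sham was -0.20 to 0.14.

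**Figure D3:**
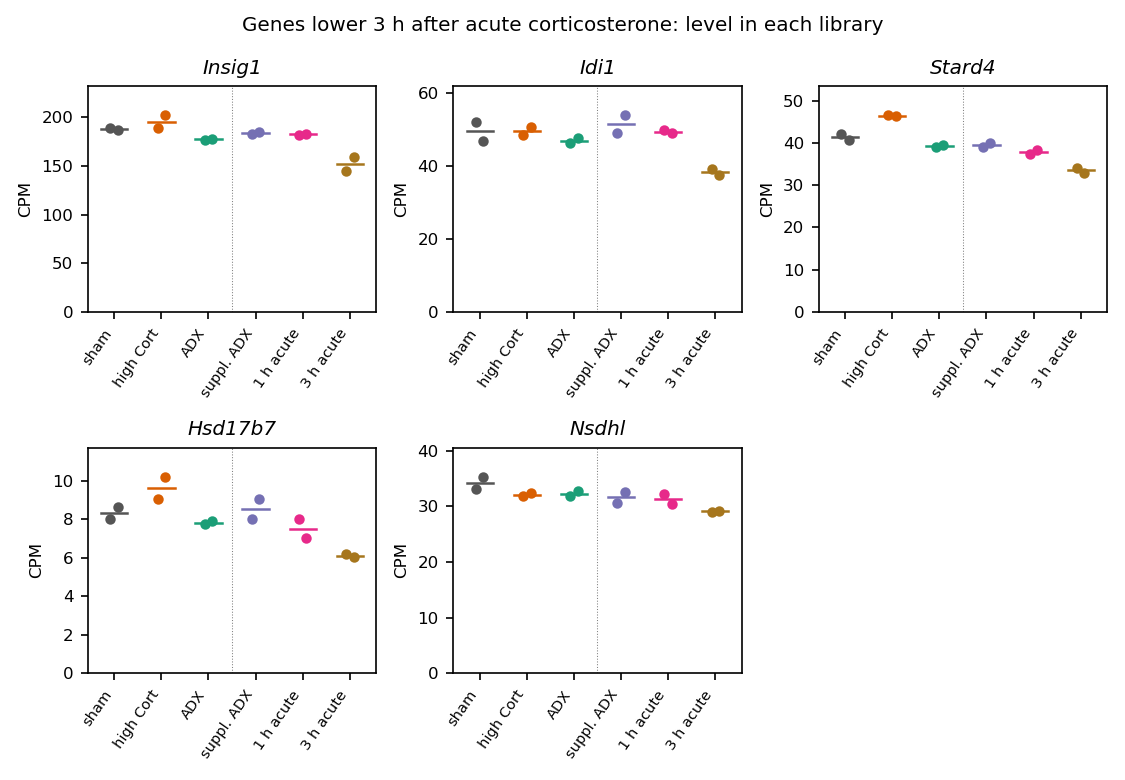
CPM of Insig1, Idi1, Stard4, Hsd17b7 and Nsdhl in each library; points are libraries, horizontal lines are means of the 2 libraries of a group, and the dotted line separates the processing runs. In each panel the 3 h acute points lie below every other point.

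Of the 5 genes that fell at 3 h, 4 had an entry in RefSeq's table of gene starts, and the 250 bases before each start are printed below for build GRCr8, 5′ to 3′ on the gene's strand. They are shown because the box CCAAT, bound by the factor NF-Y that acts beside SREBP on sterol genes, is a textbook feature of this pathway. Capitals mark CCAAT or, where the box is on the other strand, ATTGG. Insig1 lies at chr4:8057770-8058019 on the minus strand, Idi1 at chr17:66547525-66547774 (minus), Hsd17b7 at chr13:84722755-84723004 (minus) and Nsdhl at chrX:155817110-155817359 (plus).
Insig1: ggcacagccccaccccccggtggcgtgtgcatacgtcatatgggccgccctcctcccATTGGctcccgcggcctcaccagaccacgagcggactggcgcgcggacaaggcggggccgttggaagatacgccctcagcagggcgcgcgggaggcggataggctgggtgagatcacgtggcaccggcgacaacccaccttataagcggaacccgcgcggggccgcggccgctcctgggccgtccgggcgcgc
Idi1: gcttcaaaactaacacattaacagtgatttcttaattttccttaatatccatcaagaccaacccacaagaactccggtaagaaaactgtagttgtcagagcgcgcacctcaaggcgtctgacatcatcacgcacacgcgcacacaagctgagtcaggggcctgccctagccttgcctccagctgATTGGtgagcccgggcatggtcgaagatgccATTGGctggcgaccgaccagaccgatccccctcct
Hsd17b7: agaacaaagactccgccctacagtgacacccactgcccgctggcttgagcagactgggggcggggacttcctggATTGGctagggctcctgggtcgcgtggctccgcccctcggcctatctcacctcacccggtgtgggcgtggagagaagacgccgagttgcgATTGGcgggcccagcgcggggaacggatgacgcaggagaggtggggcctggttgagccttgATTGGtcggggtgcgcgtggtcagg
Nsdhl: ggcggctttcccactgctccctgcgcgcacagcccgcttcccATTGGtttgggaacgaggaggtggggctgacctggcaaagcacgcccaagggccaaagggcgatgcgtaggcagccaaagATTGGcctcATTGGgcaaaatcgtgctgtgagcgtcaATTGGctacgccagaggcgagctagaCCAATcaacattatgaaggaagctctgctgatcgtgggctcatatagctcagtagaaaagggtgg

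CCAAT occurred 1 time in the Insig1 window, 2 times in Idi1, 3 times in Hsd17b7 and 5 times in Nsdhl. Of the 34 genes, 29 had such a window, and CCAAT on either strand was found in 21 of the 29 (72.4%) against 35.4% of the 9704 windows of tested genes. The GC box GGGCGG was found in 23 of the 29 (79.3%), against 58.2%. CACNCCAC, the core of a sterol element, was found in 3 of the 29 (10.3%) against 5.41%, Insig1 being one. AGAACA, a motif of the glucocorticoid receptor, was found in 3 of the 29 (10.3%) against 11.2%, Hsd17b7 being one. Both strands were searched, and no motif contains another. Windows of genes not called at 3 h also held CCAAT, such as Mvk with 5 and Npc2 with 3. Per the processing notes the files were made on rn6, so the start sites used there may differ from these.

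Oxysterol receptor and efflux genes had no call. Abca1, the pump that loads cholesterol onto apolipoproteins, came nearest. It was at 185 and 192 CPM (sham), 167 and 190 (high Cort), 199 and 191 (ADX), 193 and 174 (supplemented ADX), 205 and 181 (1 h acute) and 163 and 159 (3 h acute). The 3 h acute libraries were the lowest of the 12. The log2 difference was -0.23 ± 0.07 from sham (adjusted p = 0.0762), -0.19 ± 0.07 from supplemented ADX (adjusted p = 0.321) and -0.27 ± 0.07 from 1 h acute (adjusted p = 0.221), and DESeq2 called it against sham. Abcg1, Nr1h2 and Nr1h3 were called in no comparison. Abcg1 lay at 148 to 167 CPM, and Nr1h3 at 2.59 to 3.56 CPM, where the counts of 51 to 100 per library limit the precision.

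Of the transport genes, Stard4 was called in high Cort against ADX and in 3 h acute against sham. This gene encodes a soluble carrier of sterol between membranes and is known as an SREBP target. It was at 42.3 and 40.7 CPM (sham), 46.6 and 46.5 (high Cort), 39.1 and 39.5 (ADX), 39.2 and 40.0 (supplemented ADX), 37.5 and 38.3 (1 h acute) and 34.1 and 33.0 (3 h acute). High Cort was the highest group and 3 h acute the lowest, and neither overlapped any other group. It rose by 0.24 ± 0.05 (log2, SE) in high Cort over ADX (18.5%, adjusted p = 0.0118). Against sham the high Cort difference was 0.17 ± 0.05 (adjusted p = 0.239). In 3 h acute it fell by 0.31 on the log2 scale against sham (SE 0.05, 19.1%, adjusted p = 0.00745), and the difference from supplemented ADX was -0.24 ± 0.05 (adjusted p = 0.141). The high Cort call was lost without either library of high Cort or of ADX, with adjusted p values of 0.0842 to 0.128, and DESeq2 and limma on FPKM did not make it.

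Npc2, which encodes the lysosomal protein that hands cholesterol to NPC1, was lowest in high Cort. It was at 52.5 and 52.8 CPM (sham), 45.8 and 44.9 (high Cort), 55.7 and 56.8 (ADX), 55.7 and 57.6 (supplemented ADX), 53.0 and 53.9 (1 h acute) and 54.4 and 55.5 (3 h acute). The high Cort libraries lay below the other 10, which spanned 52.5 to 57.6 CPM. Npc2 fell by 0.31 on the log2 scale in high Cort against ADX (SE 0.05, 19.4%, adjusted p = 0.00158), a call kept in all 22 alternatives run. Against sham the difference was -0.22 ± 0.05 (adjusted p = 0.0548). Npc1 and Soat1, which encodes the enzyme that esterifies cholesterol for storage, had no call, at 94.4 to 114 CPM and 18.8 to 22.1 CPM.

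Markers of several cell types also differed between high Cort and ADX, beside the falls of Npc2 and Cyp51. Of 8 endothelial markers, 4 were called lower (Cdh5, Cldn5, Kdr and Tie1), and the 8 summed to 438 and 458 CPM (high Cort) and 499 and 516 (ADX). All 6 markers of newly formed oligodendrocytes were lower, 2 of them called (Enpp6 and Tmem2), with sums of 150 and 169 CPM (high Cort) and 197 and 194 (ADX). Of 8 astrocyte markers, Aqp4 and Gfap were called lower and Aldh1l1 and Aldoc higher, with sums of 6220 and 6130 CPM (high Cort) and 6180 and 6220 (ADX). Of the 16 oligodendrocyte markers, Mobp was called, higher, and high Cort replicate 1 had the lowest sum of the 12 libraries. Of 9 neuron markers, Nefl and Snap25 were called higher, with sums of 6660 and 6690 CPM (high Cort) and 6020 and 6170 (ADX). Of 8 microglia markers 0 were called, 5 were lower and 3 higher. Those 8 summed to 221 and 253 CPM (high Cort) and 260 and 270 (ADX). No marker of these lists was at 0 in any library. The part of endothelial, newly formed oligodendrocyte, astrocyte, neuron and microglia markers in the falls was not tested. With the oligodendrocyte score as a covariate Npc2 (-0.31, adjusted p = 0.0031) and Cyp51 (-0.21, 0.0208) were still called.

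Cyp46a1 varied most of the 34. It was at 170 and 210 CPM (sham), 212 and 210 (high Cort), 140 and 156 (ADX), 155 and 156 (supplemented ADX), 136 and 105 (1 h acute) and 141 and 142 (3 h acute). All 8 libraries of the ADX, supplemented ADX and acute groups lay below the 4 libraries of sham and high Cort. In 1 h acute it fell by 0.65 on the log2 scale against sham (SE 0.13, 36.2%, adjusted p = 0.0195). The differences were -0.36 ± 0.13 for ADX against sham (adjusted p = 0.309), -0.42 ± 0.13 for 3 h acute against sham (adjusted p = 0.0894) and 0.51 ± 0.13 for high Cort against ADX (adjusted p = 0.0602). DESeq2 and limma on FPKM called this last difference, and DESeq2 called 3 h acute against sham as well.

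Libraries low in thalamus markers were low in Cyp46a1. The thalamus score (mean log2 CPM of the 12 markers) was 5.85 and 6.45 (sham), 6.31 and 6.25 (high Cort), 5.62 and 5.76 (ADX), 5.73 and 5.70 (supplemented ADX), 5.39 and 4.61 (1 h acute) and 5.19 and 5.31 (3 h acute). The library with the lowest score, 1 h acute replicate 2, also had the lowest Cyp46a1 and the highest Srebf2. All 12 markers were below sham in 1 h acute (8 called) and in 3 h acute (2 called), and 5 of 9 neuron markers were called lower in 1 h acute and 3 in 3 h acute. The acute groups and sham did not overlap in the score, so score and group cannot be fully told apart in a model that holds both. With the score as a covariate 1 of all genes was called in 1 h acute against sham (1641 without it). In 3 h acute against sham 4 were (1026 without it). In that fit the 1 h difference of Cyp46a1 from sham was -0.10 and was not called, and the 3 h difference was 0.03. In high Cort against ADX the difference was smaller with the score, 0.22 instead of 0.51, and was called higher (adjusted p = 0.0384). The 1 h difference of Cyp46a1 from sham, -0.65 with all libraries, was -0.48 without sham replicate 2. It was also -0.48 without 1 h acute replicate 2.

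**Figure D4:**
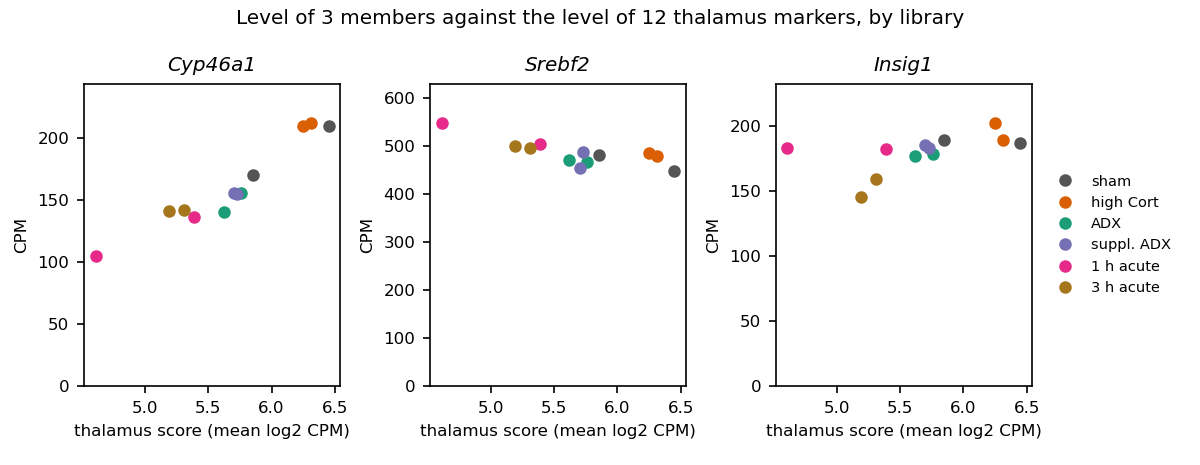
CPM of Cyp46a1, Srebf2 and Insig1 (vertical axes) against the thalamus score (horizontal axes, mean log2 CPM of 12 markers), 1 point per library, coloured by group. Cyp46a1 is low where the score is low; Insig1 in the 3 h acute libraries lies below libraries with lower and with higher scores.

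The 3 h falls behaved differently under that covariate in size and in call. With the thalamus score, none of the 5 was called against sham, where 4 of all genes were called (1026 without the score). The log2 differences were -0.30 for Insig1 (adjusted p = 0.244), -0.36 for Stard4 (0.271) and -0.44 for Idi1 (0.216), as large as without it. They were -0.28 for Hsd17b7 (0.809) and -0.12 for Nsdhl (0.846), smaller than without it. Within the run, the differences with the score were -0.46 for Idi1 (adjusted p = 0.0729) and -0.27 for Insig1 (0.158) against supplemented ADX. Oligodendrocyte markers, from the cells that make much of the brain's cholesterol, summed to 9420 and 8030 CPM (sham), 7450 and 9140 (supplemented ADX), 8160 and 6900 (1 h acute) and 7820 and 7850 (3 h acute); the sums were 6590 and 7900 (high Cort) and 8140 and 7840 (ADX). None of the 16 was called in the comparisons of the acute groups. With an oligodendrocyte score as a covariate, 182 of all genes were called in 3 h acute against sham (1026 without it). Insig1, Stard4 and Idi1 were still called (3 genes), while Hsd17b7 (-0.38, adjusted p = 0.135) and Nsdhl (-0.22, 0.127) were not. With that score the 1 h differences from sham were -0.67 for Cyp46a1 (adjusted p = 0.0831) and 0.16 for Srebf2 (0.162), near the -0.65 and 0.18 without it. Neither was called, where 353 of all genes were (1641 without the score).

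Single libraries mattered for these calls. In 3 h acute against sham, calls over all genes were fewer in each fit without a library of either group. Leaving out each library in turn, the log2 difference was -0.35 to -0.23 for Insig1 and -0.43 to -0.28 for Idi1. It was -0.32 to -0.27 for Stard4, -0.49 to -0.39 for Hsd17b7 and -0.27 to -0.18 for Nsdhl. Hsd17b7 was called in 10 of 20 alternatives, Nsdhl in 6, Stard4 in 17, Idi1 in 18 and Insig1 in 19.

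Long-term changes of corticosterone gave few calls in the 34 genes. In high Cort against sham edgeR called 0, against 0.871% of all genes. At an unadjusted p under 0.05 there were 3 (8.36% of all genes). DESeq2 and limma on FPKM plus 1 called 0, against 136 and 21 of all genes. In ADX against sham edgeR called 0, against 0.233% of all genes. At an unadjusted p under 0.05 there was 1 (12.8% of all genes). DESeq2 and limma on FPKM plus 1 called 0, against 118 and 5 of all genes. In high Cort against ADX, 3 genes were called (8.82%, against 5.77% of all genes): Npc2 and Cyp51 lower (2.27% of all genes were) and Stard4 higher (3.5%). Corticosterone supplements in adrenalectomised rats gave 0 calls by edgeR, against 4 of all genes (0.0311%), and 0 by DESeq2, against 13. By edgeR, 2 genes had an unadjusted p under 0.05 (4.05% of all genes), Cyp51 and Idi1. At 1 h against supplemented ADX there were 0 calls by edgeR, against 6 of all genes (0.0467%). DESeq2 also called 0, against 68 of all genes, and limma on FPKM plus 1 called 0, against 6. By edgeR, Srebf2, Pmvk and Cyp46a1 had an unadjusted p under 0.05 (14.7% of all genes).

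**Figure D5:**
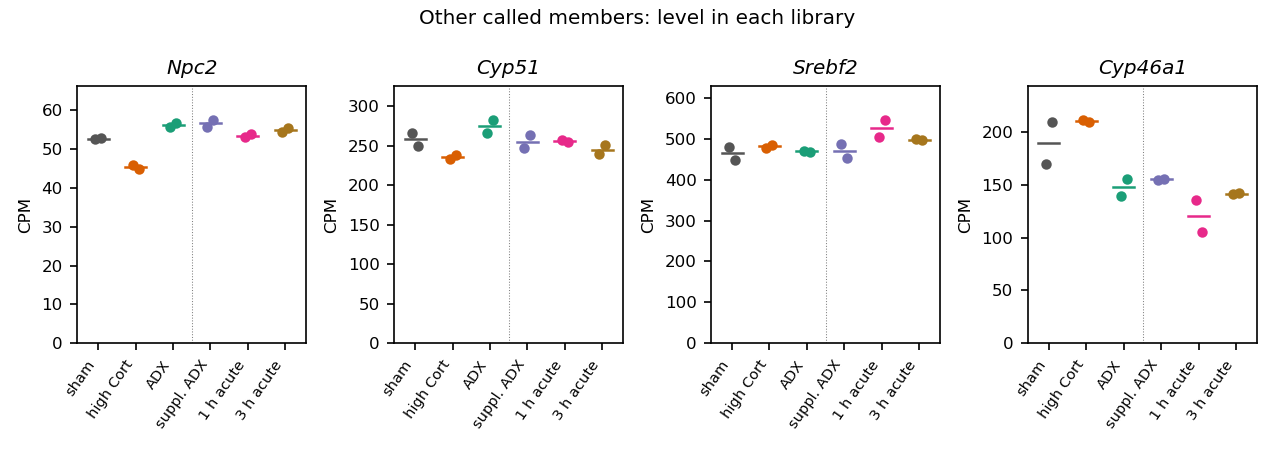
CPM of Npc2, Cyp51, Srebf2 and Cyp46a1 in each library; points are libraries, horizontal lines are means of the 2 libraries of a group, and the dotted line separates the processing runs. Npc2 and Cyp51 are lowest in high Cort, and Srebf2 is highest in 1 h acute, where Cyp46a1 is lowest.

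Genes of the same pathway outside the 34 were read from a separate list of 28 sterol and lipoprotein genes, 26 of them tested. edgeR called 2 of the 26, both lower and both in 1 h acute against sham, where 7.2% of all genes were called lower, against 7.69% of the 26. Abca7, a lipid transporter gene, was at 118 and 139 CPM (sham), 109 and 94.9 (1 h acute) and 114 and 115 (3 h acute), and fell by 0.33 on the log2 scale in 1 h acute against sham (SE 0.08, adjusted p = 0.0249). Lipa, which encodes the lysosomal lipase that frees cholesterol from its esters, was at 91.3 and 98.3 CPM (sham), 83.9 and 79.5 (1 h acute) and 91.6 and 87.0 (3 h acute), and fell by 0.21 (SE 0.06, adjusted p = 0.0295). Both 1 h acute libraries lay below both sham libraries in each gene. Neither was called with the thalamus score (0.02 for Abca7 and -0.05 for Lipa), in a fit of those groups alone (adjusted p = 0.155 and 0.117), or with the oligodendrocyte score (0.102 and 0.0567). Of all genes, 1 was called with the thalamus score, 23 in the fit of those groups and 353 with the oligodendrocyte score. Without sham replicate 2 the adjusted p was 0.199 for Abca7 and 0.283 for Lipa, and without 1 h acute replicate 2 it was 0.188 and 0.222.

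In the other 8 comparisons edgeR and DESeq2 called 0 of the 26, with 0 to 4 at an unadjusted p under 0.05. In 1 h acute against sham DESeq2 called 3, the third being Apod, and 1364 of all genes. Within a run limma on FPKM plus 1 called 1, Pltp in high Cort against ADX, and 542 of all genes. These names were chosen after their values were seen.

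Of 22 tested genes of fatty acid synthesis and activation, 4 were called in high Cort against ADX (18.2%, against 5.77% of all genes), 1 higher and 3 lower. Acsl3, an acyl-CoA synthetase gene, was at 425 and 409 CPM in high Cort and 326 and 326 in ADX, and rose by 0.35 ± 0.05 (log2, SE, adjusted p = 0.000618). The desaturase genes Fads2 and Fads1 each fell by 0.22 on the log2 scale (adjusted p = 0.00614 and 0.0237). Me1, which supplies NADPH, fell by 0.19 (adjusted p = 0.017). With the thalamus score Acsl3 was still called in this comparison (0.26, adjusted p = 0.00879). Fads2 (-0.18, adjusted p = 0.0819), Fads1 (-0.18, 0.228) and Me1 (-0.21, 0.0533) were not called with it. Fads1 was also not called by limma on FPKM plus 1 (adjusted p = 0.0856) or in a fit of those groups alone (0.0608). In 3 h acute against sham 3 were called (13.6%, against 7.98% of all genes). On the log2 scale Gpam fell by 0.25 (adjusted p = 0.0166), Acsl3 by 0.20 (0.0263) and Pnpla3 by 0.35 (0.0441). DESeq2 called Gpam and Acsl3 but not Pnpla3. In 1 h acute against sham 2 were called (9.09%, against 12.8% of all genes): Acsl3 fell by 0.19 on the log2 scale and Scd1 rose by 0.20. With the thalamus score none of these 5 differences from sham was called. Of all genes, 4 were called at 3 h and 1 at 1 h with it. The differences of Acsl3 were then -0.05 at 3 h and 0 at 1 h. The others kept their direction with that score, at -0.35 for Gpam (adjusted p = 0.203), -0.52 for Pnpla3 (0.444) and 0.15 for Scd1 (0.997). No gene of this list was called in the comparisons of the acute groups within their run.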

How the data were processed

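The 12 libraries and their groups follow the labels. Per the submitters' processing notes, the build was rn6 and the tools included Cufflinks 2.2.1, TopHat2 2.1.1 and CASAVA 1.8.2. Which tool did what, and the gene models, are not stated in the labels. The deposited raw fragments per gene, per the file headers, are expected counts without scaling; 0.751% of values, in 233 genes and none of the 34, were not whole and were rounded. The deposited FPKM values were scaled by the authors in 2 runs and served here only for levels between genes in sham and for an alternative within runs.

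The counts were tested with edgeR 4.0.16 (R 4.3.3): filterByExpr (minimum count 10, minimum total 15), TMM scaling, 1 robust quasi-likelihood fit of the 6 group means to all 12 libraries (6 residual degrees of freedom), and Benjamini-Hochberg adjustment over all 12856 genes. CPM values use the TMM library sizes. Since exchanging labels among 2 against 2 libraries cannot reach a p below 0.333, every call depends on a spread shared by all groups.

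Per-library values are given for genes called in any comparison, for the 3 genes of smallest p where fewer than 3 were called, and always for Hmgcs1, Sqle, Insig1, Srebf1, Srebf2, Abca1 and Cyp46a1; from the lists outside the 34, called genes are named, up to 4 per list and comparison. The 34 genes, the lists and this rule were chosen with earlier results of these data known. Some other sterol genes are not reported here. Promoter sequences are from RefSeq (GRCr8), with no entry matched for Pmvk, Fdft1, Sqle, Abcg1 and Stard4; Srebf1 had more than 1 entry. Alternatives were RLE size factors, 2 other count filters, DESeq2 1.42.0, limma 3.58.1 after taking log2 of FPKM plus 1 or plus 0.1, a fit of the compared groups alone, a replicate block, thalamus and oligodendrocyte scores as covariates, and leaving out each library in turn.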

Additional observations from a re-analysis of the deposited data

How the results depend on the processing

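With 2 libraries per group, 95% intervals reaching a median of 0.14 to either side on the log2 scale, and run and group not separable against sham, small differences were beyond detection. Of 48 named results, 2 changed sign in any alternative, both with the thalamus score: Abca7 in 1 h acute against sham (0.02) and Cyp46a1, not called, in 3 h acute against sham (0.03). Of 21 named calls, 3 held without each library in turn: Npc2 and Acsl3 in high Cort against ADX, and Insig1 in 3 h acute against sham. The cause of the changes below was not tested.

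Counts of the 34 genes called that moved were as follows, with the number called of all genes in brackets. High Cort against sham went from 0 (112) to 1, Npc2, with RLE size factors (114). It was also 1 without a filter (126) and with a minimum CPM of 1 in 4 libraries (117). Leaving out a library also moved the count, and the log2 difference of Npc2 was -0.24 to -0.21. High Cort against ADX went from 3 (742) to 5 in a fit of those groups alone (1653). Leaving out a library also moved the count. The log2 difference was then -0.34 to -0.31 for Npc2, 0.23 to 0.24 for Stard4 and -0.28 to -0.19 for Cyp51. 1 h acute against supplemented ADX, at 0 (6), moved only without 1 h acute replicate 1, where calls over all genes rose as well. There the log2 difference was -0.57 for Cyp46a1 and 0.22 for Srebf2, against -0.36 and 0.16 with all libraries. 3 h acute against supplemented ADX went from 0 (1) to 2 without a filter (20), with DESeq2 (34) and in a fit of those groups alone (154). With the oligodendrocyte score it was 1 (2). Leaving out a library also moved the count, and the log2 difference was -0.49 to -0.35 for Idi1 and -0.33 to -0.21 for Insig1. 3 h against 1 h acute went from 0 (3) to 2 with DESeq2 (24) and 1 with the oligodendrocyte score (3). 1 h acute against sham went from 2 (1641) to 0 in a fit of those groups alone (23) and with the thalamus score (1). With the oligodendrocyte score it was also 0 (353), at -0.67 for Cyp46a1 and 0.16 for Srebf2. Leaving out a library also moved the count, and the log2 difference was -0.85 to -0.48 for Cyp46a1 and 0.13 to 0.24 for Srebf2. 3 h acute against sham went from 5 to 0 with the thalamus score, 3 with the oligodendrocyte score and 1 to 7 leaving out a library. The test of any difference gave 6 and, leaving out a library, 3 to 8 (3 without 3 h acute replicate 2).

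The labels number the replicates in each group without saying that a number is shared. Differences between replicates 1 and 2 correlated between groups at -0.38 to 0.148 over 15 pairs of groups, 2 of them above 0.1 (10180 genes), so the numbers were not taken to pair libraries. With the replicate block, 3 h acute against sham gave 4 calls instead of 5 (Nsdhl at an adjusted p of 0.0524), any difference gave 5 instead of 6, high Cort against ADX gave 3 and 1 h acute against sham gave 2, and the other comparisons gave 0.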
